A study of Danio rerio with 4 samples.

Results

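The DEAD and DEAH box RNA helicases were taken from the bulk SLAM-Seq table of the zebrafish embryo as every gene whose name starts with ddx or dhx, in lower case, followed by a number, without ddx4. This gave 46 of the 25769 genes, 31 ddx genes and 15 dhx genes. DEAD box helicases under other names, such as the eif4a genes, were not taken, and the family below means the 46 genes. The members were chosen by name and not by a measured value, though earlier results of these data were known. The family names that the table writes in capitals, DDX17 and DHX35, were not taken, and DDX17 is given beside its paralog ddx5. Of the 46 genes, 40 had at least 100 reads in all 4 libraries and 45 passed the filter of edgeR. The remaining gene, dhx32b, had 9 reads at 4.8 hpf and 2 at 1 hpf with polyA+ selection and 4 and 0 reads with ribosomal depletion, where 0 reads allow up to 0.133 reads per 1000000 reads of the library (RPM), and it is not described further.

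The study followed stored maternal RNA and newly made zygotic RNA in AB/TL embryos by metabolic labeling. Pools of 25 embryos received 4sU by injection at the 1-cell stage and were taken at 4.8 hpf (30% epiboly, after the onset of zygotic transcription) or at 1 hpf (4-cell, before it). According to the labels the later stage was 6 hpf and the 4sU 20 mM, whereas the methods state 4.8 hpf and 50 mM. The RNA behind all 4 libraries came from 4sU-injected embryos and was treated with iodoacetamide, and libraries of uninjected embryos were not analysed here. At each stage, polyadenylated RNA went into 1 polyA+ library (NextSeq) and total RNA without ribosomal RNA into 1 ribo-depleted library (NovaSeq), so library type and platform cannot be told apart. The series describes its repeats as technical. No library was repeated within a stage and type, so the spread in the tests came from how library types disagreed on the stage change. The p-values do not measure variation between embryo pools. The polyA+ libraries held 10212400 reads at 4.8 hpf and 9058807 at 1 hpf, and the ribo-depleted libraries 17814709 and 22521675.

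RNA helicases of this family use ATP to pull apart short RNA duplexes or to strip proteins from RNA. Different members act at different steps of the life of an RNA, and some act at several. Nucleolar members drive the remodeling of ribosomal RNA precursors, several DEAH members drive the steps of the spliceosome, and cytoplasmic members act in export, translation and repression of mRNA. The early fish embryo lives on such proteins and their mRNAs from the egg until its own genome is transcribed. The roles given below were mostly established in yeast and mammalian cells.

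The labeled fraction of a gene's RNA, its new-to-total ratio or NTR, was estimated by GRAND-SLAM. Reads multiplied by NTR are called new RNA here, and the other reads stored RNA, both in RPM. The stage labels were checked with 6 zygotic genes, whose NTR at 4.8 hpf was 66.1% to 74.4% with polyA+ selection and 73.9% to 84.5% with ribosomal depletion, and which had at most 4.51 RPM at 1 hpf. Of 4 maternal genes, all had lower RPM at 4.8 hpf in both library types, and wee2, nanos3 and dnd1 had an NTR of at most 2.73%, whereas h1m had 6.44% at 4.8 hpf and 0.47% at 1 hpf with polyA+ selection and 20.4% and 12.3% with ribosomal depletion. Since the zygotic genes did not reach 100%, stored RNA of a helicase at 4.8 hpf can hold some new RNA, and how much was not tested. Stored RNA is also a share of library reads, so a higher value need not mean more maternal RNA. At 1 hpf, NTR was over 2% for 3 of 45 polyA+ and 6 of 45 ribo-depleted helicase values, with the highest values in ddx24 (3.37%) and ddx47 (13.55%).

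The helicases together took 1.288% of the polyA+ reads at 4.8 hpf and 0.8419% at 1 hpf, and 0.9601% and 0.6721% of the ribo-depleted reads. Per kilobase of gene length (RPKM), the highest levels at 1 hpf were those of ddx39ab, ddx39aa, ddx5, ddx3xb and ddx19, which gave 62.5% of the polyA+ helicase reads at 4.8 hpf and 62.1% at 1 hpf, and 58.3% and 40.3% of the ribo-depleted ones. In the polyA+ library of 1 hpf, ddx39ab stood at 776 RPKM, ddx39aa at 541, ddx5 at 428, ddx3xb at 271 and ddx19 at 180. In the ribo-depleted library of 1 hpf, ddx39ab stood at 367, ddx39aa at 261, ddx5 at 215, ddx19 at 184 and ddx3xb at 94.3 RPKM. There, ddx18 at 114, ddx3xa at 106 and ddx21 at 105 also stood above ddx3xb. The genes ddx39ab, ddx39aa and ddx5 kept their order in both library types at 1 hpf, and no spread between samples can be given for it. At 4.8 hpf the first place was held by ddx5, with 1044 RPKM after polyA+ selection and 788 after ribosomal depletion.

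New RNA was found for most helicases. T-to-C conversion, the percent of covered T bases read as C, was higher at 4.8 hpf than at the earlier stage whichever library type was taken, with 95% Wilson intervals apart, in 35 of the 40 helicases with at least 100 reads, against 64.8% of the 7376 genes with such reads. These intervals cover counting error only. The 5 without such a gap in both library types were ddx1, ddx39b, dhx29, dhx30 and dhx57. For ddx1 and dhx29 the intervals were apart in ribo-depleted libraries only. There, ddx1 had 0.148% to 0.317% at 4.8 hpf and 0.0387% to 0.0905% at 1 hpf, and dhx29 had 0.345% to 0.482% and 0.127% to 0.192%. Among helicases with at least 100 reads in the 4.8 hpf library, the median NTR was 15.1% in polyA+ and 15.3% in ribo-depleted libraries, where the median of all genes was 8.04% and 8.49%. By the bounds of the study for maternal, maternal-zygotic and zygotic genes, 14 of 43 helicases had an NTR under 5% in the polyA+ library (41.1% of all genes), 29 had one from 5% to 65% (53.3%) and 0 had one over 65% (5.69%). In the ribo-depleted library the counts were 11 of 45 (39.5%), 33 (52.3%) and 1 (8.28%). By these bounds, most of the family was in the class of genes with both stored and new RNA. The helicase ddx49 alone passed the upper bound, in the ribo-depleted library. The study set the bounds on means over single cells, not on bulk libraries of 1 stage. In the bulk polyA+ library of 4.8 hpf the zygotic gene gsc had 66.1%, close to the upper bound. The plot of NTR by gene shows how the labeled fraction was spread over the roles.

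**Figure D1:**
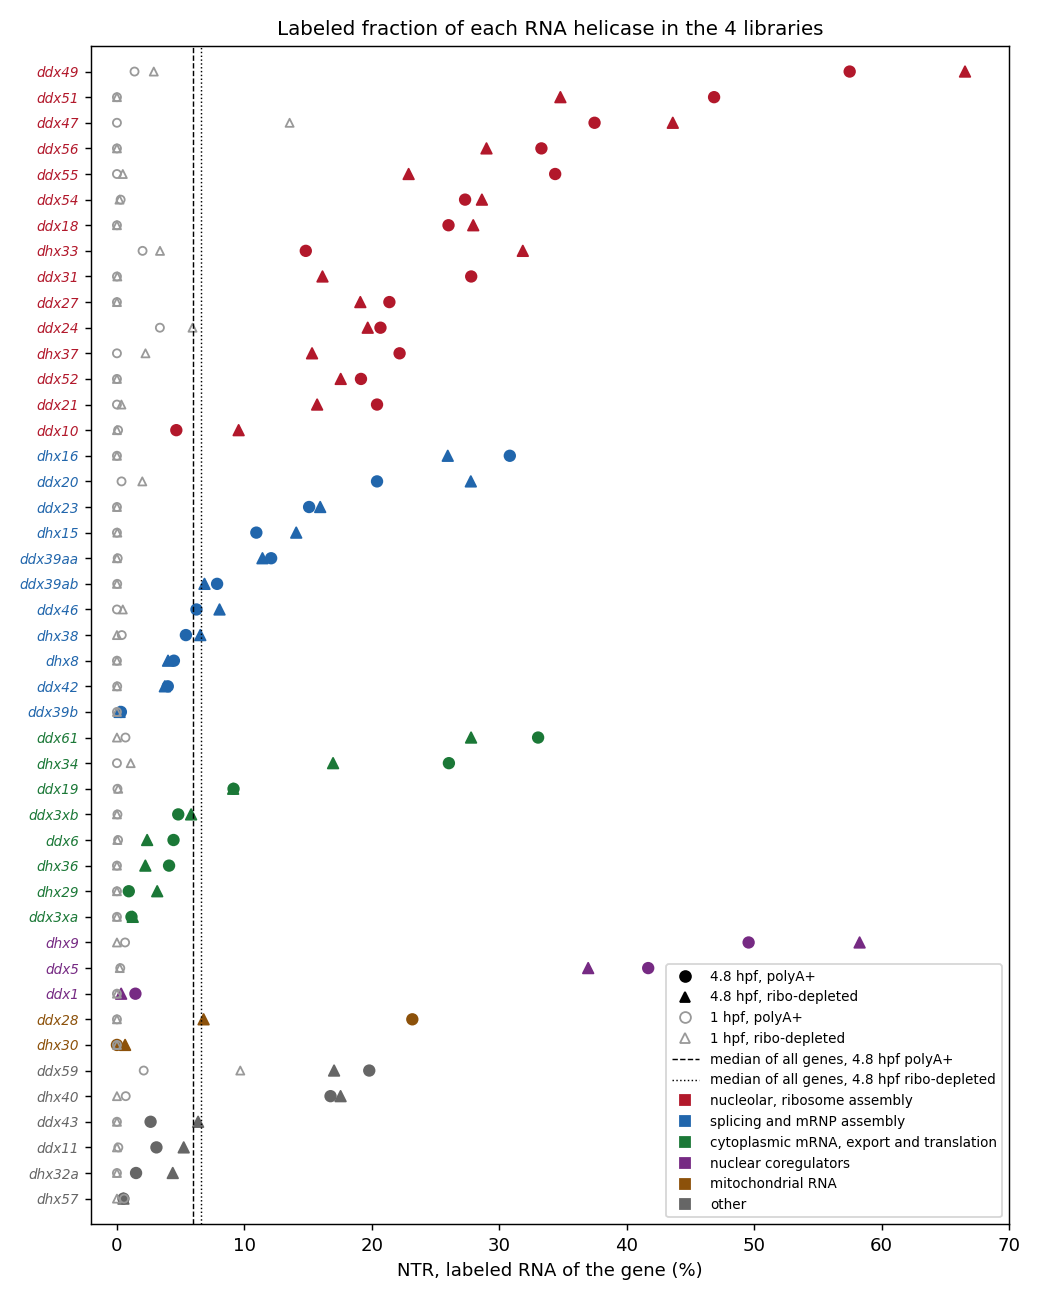
NTR in percent (x axis) of the 45 helicases with reads in all libraries, grouped by role (colors), with filled symbols for 4.8 hpf, open gray symbols for 1 hpf, circles for polyA+ and triangles for ribo-depleted libraries, and vertical lines at the 4.8 hpf medians of all genes with at least 100 reads in all libraries (6.00% and 6.56%). The nucleolar genes lie to the right, with medians of 21.8% and 23.8%. The cytoplasmic genes lie mostly to the left, with medians of 4.63% and 4.49%. These medians cover only the 12 nucleolar and 6 cytoplasmic genes with at least 100 reads in all libraries.

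Of the 15 nucleolar helicases, which assemble ribosomal subunits, 12 had at least 100 reads in all libraries. Their NTR at 4.8 hpf ran between 4.66% and 57.5% with polyA+ selection (median 21.8%) and between 9.55% and 66.6% with ribosomal depletion (median 23.8%). Over all genes with such reads, the medians were 6.00% and 6.56%. All 12 had a higher T-to-C conversion at 4.8 hpf in both library types. The lowest labeled fraction was that of ddx10, whose yeast relative acts early in small subunit assembly.

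The highest labeled fraction of the family was that of ddx49, a nucleolar gene of ribosomal RNA processing. Its NTR was 57.5% at 4.8 hpf and 1.38% at 1 hpf in polyA+ libraries, and 66.6% and 2.89% in ribo-depleted libraries. Its T-to-C conversion was 4.35% (95% interval 3.76 to 5.02) at 4.8 hpf and 0.363% (0.242 to 0.545) at 1 hpf in polyA+ libraries, and 4.16% (3.78 to 4.59) and 0.594% (0.524 to 0.672) in ribo-depleted libraries. Conversion was thus higher at 4.8 hpf in both library types, with intervals far apart. Its total reads went the other way, with 21.9 RPM at 4.8 hpf and 38.0 at 1 hpf in polyA+ libraries, and 15.2 and 51.2 in ribo-depleted libraries. Stored ddx49 RNA was 9.32 and 37.5 RPM in polyA+ libraries, and 5.07 and 49.7 in ribo-depleted libraries. Both 4.8 hpf values lay below both 1 hpf values, for total and for stored RNA. The fall of stored RNA was the largest of the family in the test (log2 -2.50, SE 0.46, edgeR quasi-likelihood test with library type as a covariate, adjusted p = 8.6642e-07), and that of total reads was smaller (log2 -1.12, SE 0.45, adjusted p = 0.0384).

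A like course was seen for ddx51, whose yeast relative acts in large subunit assembly. It had 38.4 RPM at 4.8 hpf and 67.9 at 1 hpf in polyA+ libraries, and 27.9 and 50.3 in ribo-depleted libraries, with an NTR at 4.8 hpf of 46.9% and 34.8% against 0% in both libraries of 1 hpf. Stored ddx51 RNA fell (log2 -1.45, SE 0.44, edgeR adjusted p = 0.00616), while the change of its total reads did not pass the test (log2 -0.68, SE 0.45, adjusted p = 0.246). The same held for ddx20, the Gemin3 component of the complex that assembles spliceosomal snRNPs. Its NTR at 4.8 hpf was 20.4% in polyA+ and 27.8% in ribo-depleted libraries, its stored RNA fell (log2 -1.28, SE 0.45, adjusted p = 0.0208) and the change of its total reads did not pass the test (log2 -0.90, adjusted p = 0.118). For ddx49, ddx51 and ddx20, stored RNA fell as a share of reads, while new RNA made up at least 20.4% of the gene's reads at 4.8 hpf.

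**Figure D2:**
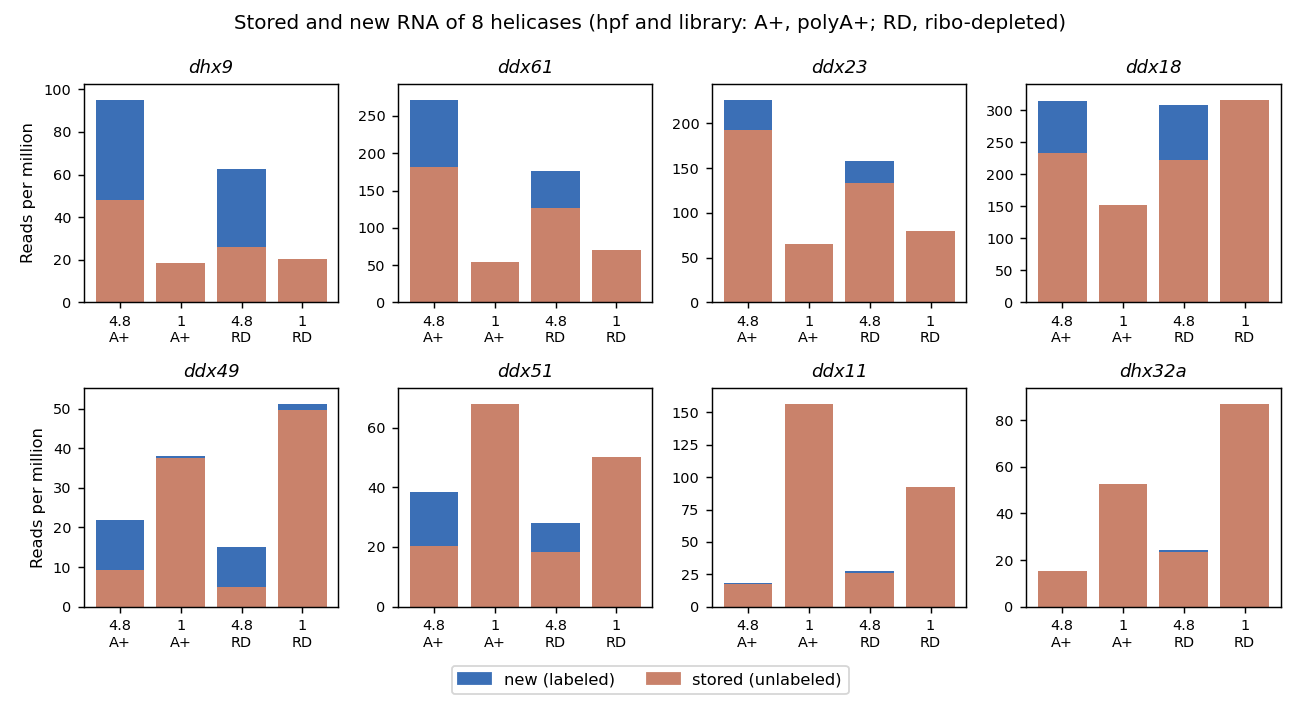
Stored (brown) and new (blue) RNA of 8 helicases in RPM (y axis, starting at 0 and scaled per gene) at 4.8 hpf and 1 hpf in the polyA+ libraries (A+) and the ribo-depleted libraries (RD), with 1 library per bar. Stored ddx49 is at 9.32 and 5.07 RPM at 4.8 hpf, against 37.5 and 49.7 at 1 hpf, while stored ddx61 is at 182 and 127 against 54.3 and 70.8.

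Across all genes tested, total reads were called higher at 4.8 hpf for 18.3% and lower for 14.4%. Of the 45 helicases tested, 5 rose and 7 fell, shares of 11.1% and 15.6%. Stored RNA was called higher for 8.42% of all genes tested and lower for 18.2%, and for 2 and 9 of 45 helicases, shares of 4.44% and 20.0%. The calls of the family thus did not lie all to one side of those of all genes. In these embryo samples, fewer cells of a type and less RNA per cell cannot be told apart. The calls depended on the term for library type: without library type in the fit, edgeR called 1 of the 12 total changes, dhx9, and 0 of the 11 stored changes, where 2 stored changes upward and 7 downward had an unadjusted p under 0.05. Fits to 3 libraries, which also had no term for library type, left 0 called whichever library was out, except that ddx11 was still called without the 1 hpf ribo-depleted library. At an unadjusted p under 0.05, these fits had 1 to 8 total changes upward and 0 to 7 downward. DESeq2 did not call ddx1, ddx49, dhx33 and dhx36, and it called ddx5, dhx15 and dhx38 in addition. Among stored changes, DESeq2 did not call ddx1, TMM of the unlabeled reads lost ddx1 and ddx20 and gained ddx47, dhx38 and dhx9, and ddx23 was lost with no filter on low counts. edgeR gave genes of similar expression the same spread, so a gene whose change differed between library types could still be called.

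The largest rise was that of dhx9, RNA helicase A, a nuclear helicase of transcription and RNA processing. It had 95.1 RPM at 4.8 hpf and 18.5 at 1 hpf in polyA+ libraries, and 62.8 and 20.3 in ribo-depleted libraries (log2 2.14, SE 0.47, edgeR adjusted p = 3.83e-05). Both 4.8 hpf values exceeded both 1 hpf values. New RNA accounted for much of the 4.8 hpf level, with an NTR of 49.6% and 58.3%, against 0.64% and 0% at 1 hpf. Stored dhx9 stood at 47.9 and 18.4 RPM in polyA+ libraries and at 26.2 and 20.3 in ribo-depleted libraries. This change missed the threshold (log2 1.02, SE 0.43, adjusted p = 0.0633) but was called with TMM of the unlabeled reads.

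The most abundant new RNA of the family came from ddx5 (p68), a nuclear coregulator of transcription and splicing. It had 3194 RPM at 4.8 hpf and 1309 at 1 hpf in polyA+ libraries, and 2411 and 658 in ribo-depleted libraries, with an NTR of 41.7% and 0.26% in polyA+ and 37.0% and 0.22% in ribo-depleted libraries. Its total change was large but missed the threshold (log2 1.73, SE 0.85, edgeR adjusted p = 0.104), and it was called with DESeq2, with library totals in place of TMM and with no filter on low counts. By itself ddx5 supplied 55.4% of all new helicase RNA at 4.8 hpf with polyA+ selection and 53.1% with ribosomal depletion. The percent labeled over all helicases was 18.7% at 4.8 hpf and 0.113% at 1 hpf in polyA+ libraries, and 17.5% and 0.300% in ribo-depleted libraries. All reads of the libraries stood at 16.4% in polyA+ and 18.7% in ribo-depleted libraries at 4.8 hpf. Without ddx5 the percent labeled over the helicases was 11.1% and 10.9% at 4.8 hpf. No gene was taken out of the values for all reads, so they compare with the helicase values that include ddx5. The paralog DDX17 had 119 and 89.0 RPM in polyA+ and 121 and 60.2 in ribo-depleted libraries, with an NTR of 21.2% and 24.4% at 4.8 hpf. The third nuclear gene, ddx1, of the human tRNA ligase complex, had 10.97 and 30.7 RPM in polyA+ libraries and 20.6 and 46.0 RPM in ribo-depleted libraries, with an NTR of 1.45% and 0.33% at 4.8 hpf, and it fell (log2 -1.16, SE 0.45, adjusted p = 0.0323).

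By the mean new RNA of both 4.8 hpf libraries, ddx39ab, ddx18, ddx39aa and ddx19 came after ddx5. The order differed within each library, and with polyA+ selection ddx3xb and ddx61, at 90.5 and 89.8 RPM of new RNA, were above ddx19 and ddx18, at 83.9 and 82.0. In the 4.8 hpf polyA+ library the NTR was 7.86% for ddx39ab, 26.0% for ddx18, 12.1% for ddx39aa and 9.15% for ddx19, and in the ribo-depleted library 6.87%, 28.0%, 11.4% and 9.12% in that order. High levels with a modest labeled fraction placed ddx39ab, ddx39aa and ddx19 in this group. The nucleolar ddx18, related to yeast Has1 of both subunits, had 315 and 153 RPM in polyA+ libraries and 309 and 316 RPM in ribo-depleted libraries, and was there through its labeled fraction.

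Among cytoplasmic helicases, the ddx6 pair differed between its genes. The protein of ddx6 represses translation and promotes decapping, and ddx61 is a second gene of the same type in fish. The level of ddx61 was 272 RPM at 4.8 hpf and 54.6 at 1 hpf in polyA+ libraries, and 176 and 70.8 in ribo-depleted libraries. The level of ddx6 was 79.8 and 119 RPM in polyA+ libraries, and 151 and 154 in ribo-depleted libraries. Both 4.8 hpf values of ddx61 exceeded both of its 1 hpf values, while those of ddx6 overlapped in range. For ddx61 the total rose (log2 1.96, SE 0.53, edgeR adjusted p = 0.00116). So did its stored RNA as a share of reads (log2 1.44, SE 0.51, adjusted p = 0.0205). Whether unlabeled new RNA entered this rise was not tested. The NTR of ddx61 was 33.1% and 27.8% at 4.8 hpf, against 4.44% and 2.37% for ddx6. Per kilobase, ddx61 stood at 72.8 and 47.1 RPKM at 4.8 hpf and ddx6 at 11.8 and 22.2, whereas at 1 hpf ddx61 stood at 14.6 and 19.0 and ddx6 at 17.6 and 22.7.

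The ddx3x pair, which helps translation of mRNAs with structured leaders, was abundant and little labeled. For ddx3xb, 1881 RPM were counted at 4.8 hpf and 1183 at 1 hpf in polyA+ libraries, and 577 and 412 in ribo-depleted libraries. For ddx3xa the level was 495 and 364 RPM in polyA+ libraries, and 577 and 528 in ribo-depleted libraries. NTR at 4.8 hpf was 4.81% and 5.82% for ddx3xb and 1.14% and 1.24% for ddx3xa. The export factor ddx19 had 917 and 602 RPM in polyA+ libraries and 892 and 618 in ribo-depleted libraries. None of these 3 genes passed the test of total reads, although each had its higher value at 4.8 hpf in each library type. In dhx36, which unwinds G-quadruplexes, the level was 8.13 RPM at 4.8 hpf and 34.9 at 1 hpf in polyA+ libraries. In ribo-depleted libraries it was 9.09 and 22.0. This fall was called (log2 -1.53, SE 0.47, edgeR adjusted p = 0.00548). The NTR of dhx36 at 4.8 hpf was 4.09% and 2.23%, from only 83 and 162 reads.

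The 11 splicing and mRNP helicases had a median NTR at 4.8 hpf of 7.86% with polyA+ selection and 8.05% with ribosomal depletion, against 6.00% and 6.56% for all genes with such reads, with a range that ran from 0.31% to 30.8% and from 0.21% to 27.8%. RPM values were higher at 4.8 hpf in polyA+ libraries for 9 of the 11 (7 with TMM scaling). In ribo-depleted libraries they were higher for 10 with either scaling. The share of all genes with higher RPM was not counted, and the median log2 change of all genes was -0.10 in polyA+ and -0.30 in ribo-depleted libraries. The test called 1 rise among the 11, where 18.3% of all genes tested were called higher. It was that of ddx23, the relative of yeast Prp28 that acts when the spliceosome is activated. It had 226 RPM at 4.8 hpf and 65.1 at 1 hpf in polyA+ libraries, and 158 and 79.8 in ribo-depleted libraries (log2 1.54, SE 0.51, edgeR adjusted p = 0.0110). Stored ddx23 rose as well, as a share of reads (log2 1.30, SE 0.51, adjusted p = 0.0424). Its NTR of 15.1% and 15.95% at 4.8 hpf left most of its reads unlabeled, and how many of these were new was not tested. The spliceosome disassembly factor dhx15 and dhx38, a relative of yeast Prp16, had 347 and 190 RPM at 4.8 hpf and 183 and 78.3 RPM at 1 hpf in polyA+ libraries, and 176 and 163 against 89.9 and 96.4 RPM in ribo-depleted libraries. These changes missed the threshold (edgeR adjusted p = 0.108 for dhx15 and 0.0619 for dhx38). Of the dhx genes in this splicing group, dhx16 (Prp2) had the highest NTR, 30.8% and 26.0%, and dhx8 (Prp22) the lowest, 4.47% and 4.01%.

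The ddx39 genes, related to the export factor UAP56, ranged from the most abundant helicase per kilobase at 1 hpf to one with hardly any label. For ddx39ab the level was 1290 RPM at 4.8 hpf and 1231 RPM at 1 hpf in polyA+ libraries and 1082 and 583 in ribo-depleted libraries. For ddx39aa the values were 767 and 902 in polyA+ libraries and 636 and 435 in ribo-depleted libraries. For ddx39b they were 40.4 and 40.1 in polyA+ libraries and 38.9 and 25.4 in ribo-depleted libraries. None of the 3 changes passed the test. The NTR of ddx39b was 0.31% and 0.21% at 4.8 hpf, and its T-to-C conversion of 0.132% and 0.0792% at 4.8 hpf lay within the intervals of 1 hpf, 0.0756% to 0.256% in polyA+ and 0.0355% to 0.0999% in ribo-depleted libraries. New ddx39b RNA was thus not detectable at this depth. Reads shared between close paralogs can be split uncertainly, and the count of ddx39ab was not whole in every library.

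By the mean NTR of both 4.8 hpf libraries, the lowest labeled fractions after ddx39b were those of dhx30, of mitochondrial ribosome assembly, with 0% and 0.64%, and dhx57, with 0.51% and 0.51%. In the ribo-depleted library alone, ddx1 was below both, with 0.33%. The level of dhx30 was 14.9 RPM at 4.8 hpf and 30.2 at 1 hpf in polyA+ libraries, and 61.1 and 128 in ribo-depleted libraries. That of dhx57 was 17.8 and 28.0 RPM in polyA+ libraries, and 27.6 and 63.4 in ribo-depleted libraries. Both genes had the lower value at 4.8 hpf in each library type, and neither change passed the test (edgeR adjusted p = 0.127 for dhx30). The other mitochondrial helicase, ddx28, which joins the assembly of the large mitochondrial subunit in human cells, fell. It had 11.8 RPM at 4.8 hpf and 29.8 at 1 hpf in polyA+ libraries, and 12.9 and 61.1 in ribo-depleted libraries (log2 -1.64, SE 0.45, adjusted p = 0.00156). Its NTR at 4.8 hpf differed between library types, 23.2% in polyA+ and 6.80% in ribo-depleted, from 121 and 230 reads.

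The largest fall was that of ddx11, a DNA helicase of sister chromatid cohesion that belongs here by its name. It fell to 18.2 RPM at 4.8 hpf, against 156 at 1 hpf, in polyA+ libraries and to 27.7, against 92.5, in ribo-depleted libraries (log2 -2.26, SE 0.50, edgeR adjusted p = 5.61e-05). Its NTR at 4.8 hpf was 3.10% and 5.24%, so little new RNA was added. The course of dhx32a was alike, with 15.4 and 52.7 RPM in polyA+ libraries, 24.5 and 87.0 in ribo-depleted libraries (log2 -1.65, SE 0.46, adjusted p = 0.00164) and an NTR of 1.5% and 4.38% at 4.8 hpf. The nucleolar ddx31 fell too, with 9.11 and 31.9 RPM in polyA+ libraries and 19.0 and 70.7 in ribo-depleted libraries (log2 -1.70, SE 0.45, adjusted p = 0.00104). It kept a larger new fraction, 27.8% and 16.1%, the first from 93 reads. For ddx11, dhx32a, ddx31, ddx28, dhx36 and ddx1, all called lower in total reads, both 4.8 hpf values were below both 1 hpf values. The share of all genes with such values was not counted. Stored RNA fell with the total in all 6. With an NTR of at most 0.11% at 1 hpf, this follows from how stored RNA is computed and is no separate result.

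Stage changes of nucleolar helicases were not alike in the 2 library types, a difference that 1 library in each stage and type leaves without a test. In the polyA+ libraries, 9 of 12 were higher at 4.8 hpf by library totals and by TMM scaling, with a median log2 change of 1.03 by totals. In the ribo-depleted libraries, 4 of 12 were higher by totals and 8 of 12 by TMM scaling, with a median of -0.04 by totals. The medians over all genes were -0.10 in polyA+ and -0.30 in ribo-depleted libraries, and the share of all genes that were higher was not counted. With library totals, 8 of 40 helicases were higher in polyA+ and lower in ribo-depleted libraries at 4.8 hpf, 6 of them nucleolar, against 17.4% of all genes, and 2 of 40 showed the reverse, against 8.15%. The share of the family, 20.0%, was near that of all genes. With TMM scaling, which shifts a ribo-depleted stage change by 0.34 on the log2 scale and a polyA+ one by -0.03, 4 of the 8 remained so, of which 2 were nucleolar, dhx37 and ddx56. The polyA+ change exceeded the ribo-depleted change by over 1 log2 beyond the median of all genes in 6 of 40 helicases (13.5% of all genes), of which 5 were nucleolar, and fell short of it by over 1 log2 in 1, ddx11 (8.13%).

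Among the 40 helicases with at least 100 reads in all libraries, the polyA+ change exceeded the ribo-depleted change most for dhx37, whose yeast relative releases a snoRNA from the small subunit precursor. It had 44.9 RPM at 4.8 hpf and 14.5 at 1 hpf in polyA+ libraries, and 85.5 and 173 in ribo-depleted libraries. Its reads were thus higher at 4.8 hpf in one library type and lower in the other, and the 2 changes differed by 2.65 on the log2 scale. For ddx56, of large subunit assembly, the levels were 70.6 and 27.6 RPM in polyA+ libraries and 86.7 and 134 in ribo-depleted libraries. For ddx21, which binds ribosomal RNA genes and their transcripts, they were 251 and 67.6 RPM in polyA+ libraries and 258 and 268 in ribo-depleted libraries. In these genes the libraries differed most at 1 hpf: the log2 ratio of polyA+ to ribo-depleted was -0.93 at 4.8 hpf and -3.58 at 1 hpf for dhx37, -0.30 and -2.28 for ddx56, and -0.04 and -1.99 for ddx21. The opposite directions of dhx37 and ddx56 were also seen with TMM scaling, while ddx21 then was higher at 4.8 hpf in both library types. NTR of ddx56 was 33.3% and 29.0% at 4.8 hpf, and that of dhx37 was 22.2% and 15.3%.

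**Figure D3:**
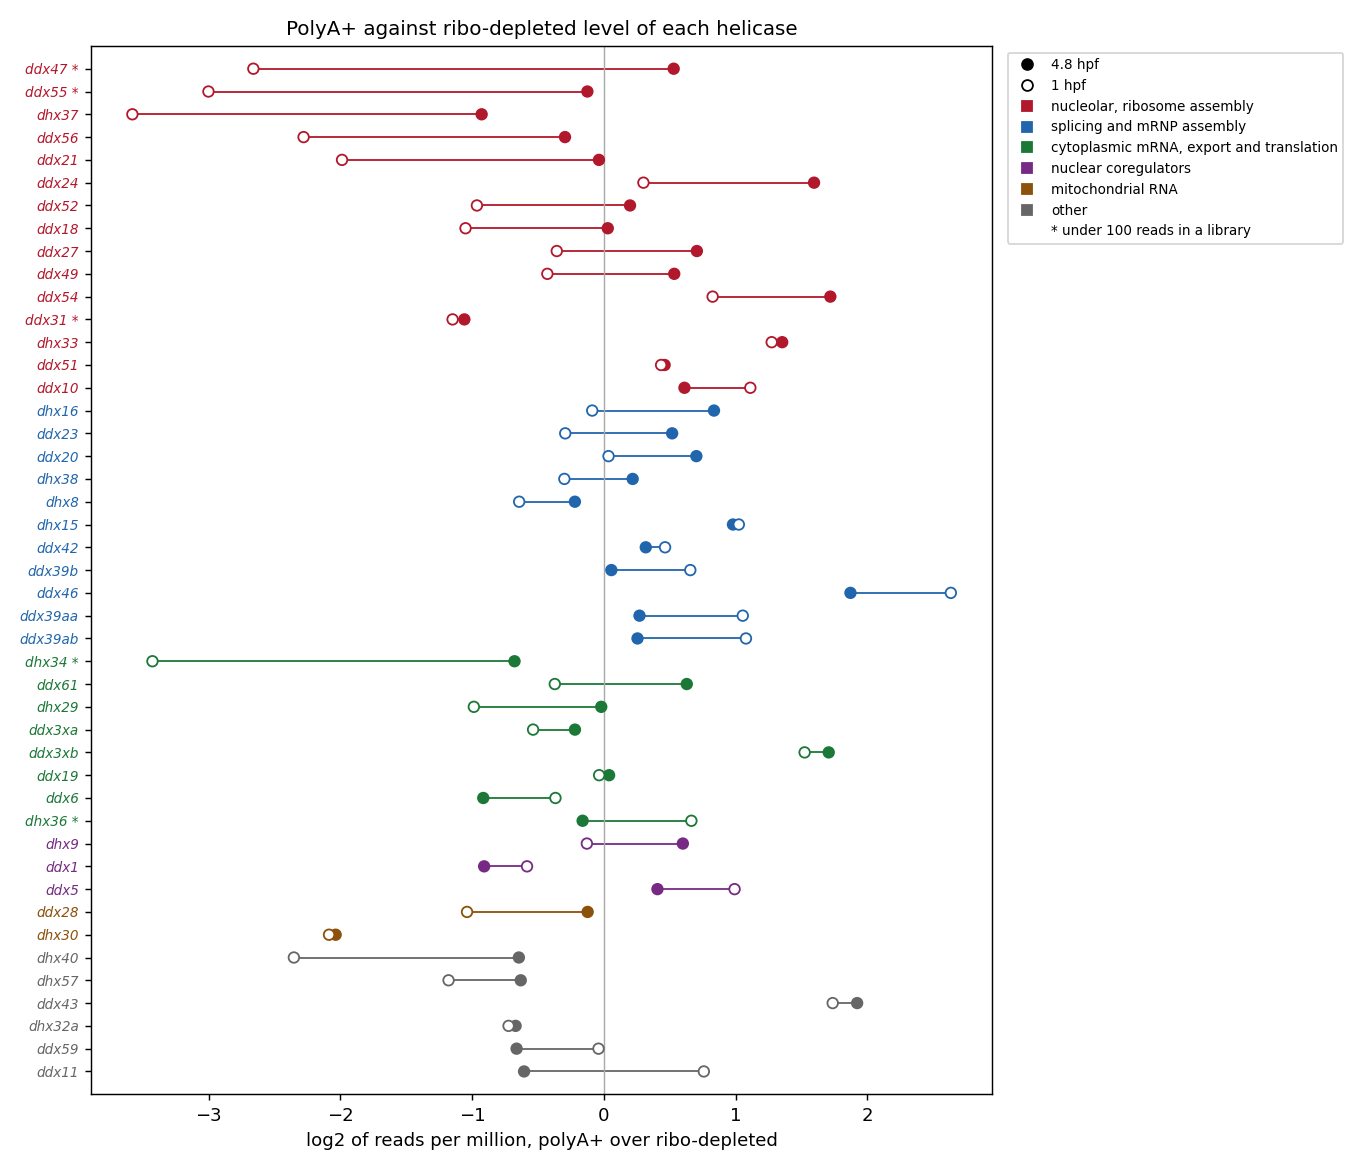
Log2 ratio of RPM in polyA+ over ribo-depleted libraries (x axis) for 45 helicases grouped by role, with filled points for 4.8 hpf, open points for 1 hpf and a line joining the values of a gene. Long lines to the left belong mostly to nucleolar genes, such as dhx37 with -0.93 and -3.58, whereas ddx51, dhx33 and dhx30 hardly moved.

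The genes ddx47, ddx55 and dhx34, with 48 or 51 reads in the 1 hpf polyA+ library, lay outside the 40 and had wider gaps, of 3.19, 2.88 and 2.75 on the log2 scale in that order. For ddx47, related to yeast Rrp3, the 1 hpf polyA+ level was 5.30 RPM (95% Poisson interval 3.91 to 7.03), against 33.5 in the ribo-depleted library. At 4.8 hpf it had 52.8 and 36.6 RPM. It was called higher (log2 1.81, SE 0.49, edgeR adjusted p = 0.00140), on a log2 change of 3.32 in polyA+ and 0.13 in ribo-depleted libraries. This call therefore rested on the polyA+ libraries. For ddx55, also of large subunit assembly, the levels were 27.9 and 5.63 RPM in polyA+ libraries and 30.5 and 45.1 in ribo-depleted libraries. For dhx34, a helicase of nonsense-mediated decay, they were 29.8 and 5.63 in polyA+ libraries and 47.7 and 60.6 in ribo-depleted libraries. NTR of ddx47 at 4.8 hpf was 37.5% and 43.6%, against 0% and 13.55% at 1 hpf.

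The yeast relatives of ddx24, ddx27 and ddx54 act on the large subunit, and that of ddx18 acts on both subunits. Smaller gaps of the same sign were found in ddx18, ddx24, ddx27 and ddx54. Their log2 changes were 1.05, 1.30, 1.05 and 0.99 in polyA+ libraries and -0.03, 0.01, -0.01 and 0.10 in ribo-depleted libraries, in that order. The ribo-depleted changes of ddx18 and ddx27 turn positive with TMM scaling. All 4 had an NTR of at least 19.1% at 4.8 hpf in both library types.

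The nucleolar genes were not uniform in this. In dhx33, which promotes ribosomal RNA transcription in mammalian cells, both library types changed alike, with 54.2 and 27.0 RPM in polyA+ libraries and 21.2 and 11.2 in ribo-depleted libraries (log2 1.12, SE 0.44, edgeR adjusted p = 0.0385). Its call was lost with DESeq2, with library totals and with no filter on low counts. For ddx51 and ddx31 the log2 ratio between library types was also much the same at both stages, 0.46 and 0.43 for ddx51 and -1.06 and -1.15 for ddx31. The polyA+ change of ddx10 was below its ribo-depleted change, by 0.50 on the log2 scale.

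**Figure D4:**
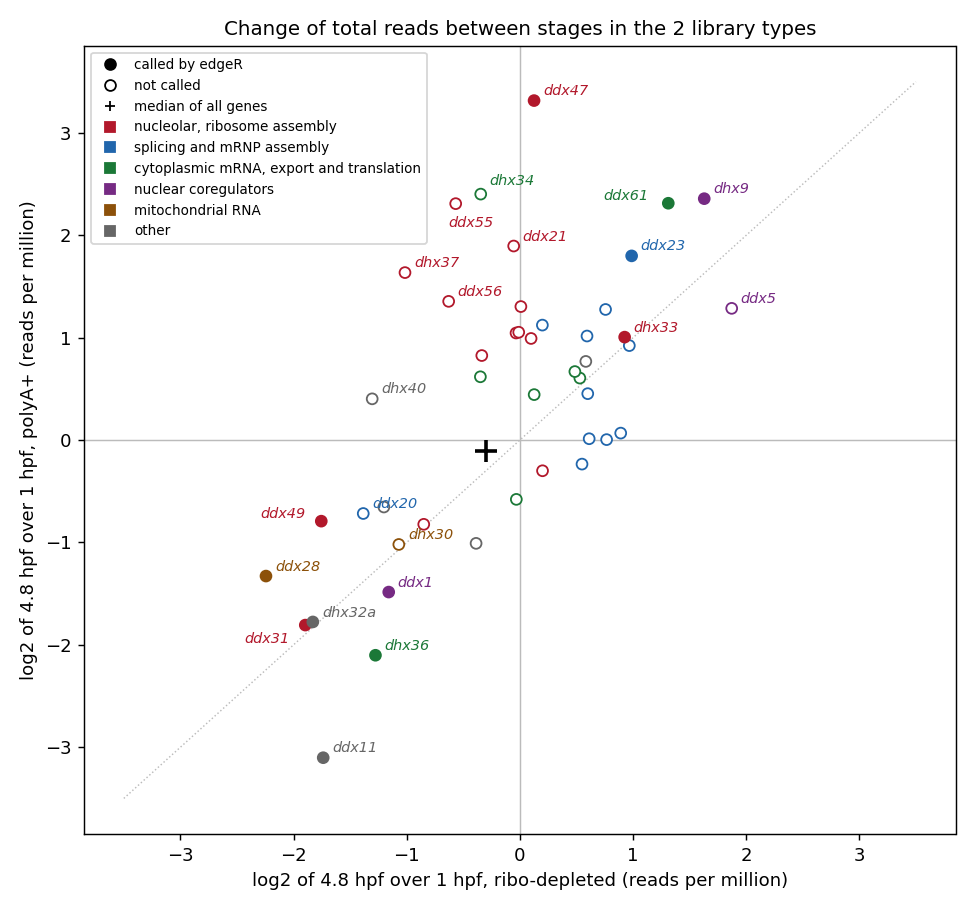
Log2 of RPM at 4.8 hpf over 1 hpf in ribo-depleted (x axis) and polyA+ libraries (y axis) for 45 helicases, colored by role, filled where edgeR called the change and with a cross at the median of all genes (-0.30 and -0.10). Falls such as ddx11 and ddx31 lie in the lower left in both library types, while the nucleolar dhx37, ddx56, ddx55 and ddx47 lie above the diagonal.

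Between library types over both stages, edgeR called 4 of 45 helicases higher in polyA+ (5.19% of all genes) and 5 lower (6.44%). Higher were ddx46, ddx43, dhx33 and ddx54, and lower were dhx37, dhx30, dhx34, ddx55 and dhx40. The largest was ddx46, related to yeast Prp5 of the early spliceosome, with 379 and 378 RPM in the polyA+ libraries of 4.8 hpf and 1 hpf, against 104 and 60.9 in the ribo-depleted libraries (log2 2.43, SE 0.58, adjusted p = 0.000765). For dhx30 the polyA+ level was lower at both stages (log2 -1.88, SE 0.47, adjusted p = 0.00126), with ratios of -2.04 at 4.8 hpf and -2.09 at 1 hpf. For dhx34 the ratio was -0.68 at 4.8 hpf and -3.43 at 1 hpf, and for dhx40 it was -0.65 and -2.35. For ddx55, polyA+ and ribo-depleted libraries had 27.9 and 30.5 RPM at 4.8 hpf and 5.63 and 45.1 at 1 hpf. Both dhx34 and ddx55 had only 51 reads in the 1 hpf polyA+ library. A difference present at both stages, as for ddx46 and dhx30, was thus distinct from one found mainly at 1 hpf. The latter was seen for dhx37, dhx34, ddx55 and dhx40. The difference between stages could not be tested with 1 library in each. The gene ddx43 had 187 and 110 RPM in polyA+ libraries against 49.3 and 32.9 RPM in ribo-depleted libraries (log2 2.01, SE 0.50, adjusted p = 0.00124), also at both stages alike. DESeq2 did not call ddx55, dhx34 and dhx40, and with library totals ddx54, ddx55, dhx33 and dhx40 were lost. Without stage in the fit, 0 of the 9 were called by edgeR, with 2 higher and 1 lower at an unadjusted p under 0.05.

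A pair of comparison lists was set beside the family. Of 18 other RNA helicases, 16 were found and 14 tested, and total reads of 4 rose and of 0 fell by edgeR, against 18.3% and 14.4% of all genes (4 and 1 at an unadjusted p under 0.05, and 3 and 0 called by DESeq2). These were eif4a2, the translation initiation helicase, with an NTR of 64.5% and 75.8% at 4.8 hpf, the spliceosomal snrnp200 and aqr, and mov10a, whose log2 change was 2.52 in polyA+ and -0.10 in ribo-depleted libraries. Of 18 cofactors of DEAD and DEAH proteins, 16 were tested, of which sugp1 and nom1 rose and gpatch1 fell. The median NTR at 4.8 hpf was 10.6% and 16.2% for the 12 other helicases with at least 100 reads in all libraries and 14.2% and 15.0% for the 16 cofactors, against 13.5% and 12.7% for the 40 helicases of the family.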

How the data were processed

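Bulk SLAM-Seq reads of 4 libraries (2 stages, 1 polyA+ and 1 ribo-depleted library each) were trimmed (cutadapt 3.5), aligned to GRCz11 (STAR 2.7.10a, Ensembl release 102) and passed to GRAND-SLAM (2.0.5f) by the authors. They deposited an estimated count for each gene without normalization, whole for 34 to 37 of the 46 helicases. The deposited NTR is a fraction between 0 and 1, and the deposited coverage counts covered T bases. T-to-C conversions are estimated counts in the deposited table. Libraries were identified by stage and instrument, which the methods tie to library type, since no replicate number stands beside the values.

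Counts were rounded and tested by quasi-likelihood in edgeR 4.0.16 under R 4.3.3 (TMM, filterByExpr, Benjamini-Hochberg over 16315 genes, or 15434 for stored RNA, threshold 0.05) with stage and library type as terms. This leaves 1 residual degree of freedom (dispersion 0.0977). Stored RNA used the scaling of the total reads. SE is the log2 change divided by the square root of F. The scripts were tested on simulated data. DESeq2 1.42.0, Python 3.11.15, numpy 2.4.6, pandas 2.3.3, scipy 1.17.1 and matplotlib 3.10.9 were used for the rest. RPM are reads of a gene among 1000000 gene reads of its library. A total of 9058807 to 22521675 reads per library limits genes with few reads.

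Members, roles and comparison lists were chosen with earlier results of these data known. Values in every library are given for the 5 largest called rises and falls that had the same sign in both library types, the 5 highest and 3 lowest NTR, the 5 with the most new RNA, the 5 highest levels per kilobase at 1 hpf and 4 paralog sets. Other genes given in full, among them ddx20, ddx46, ddx43, dhx15, dhx38, ddx55, dhx34, dhx37, ddx21 and ddx1, were chosen after their values were seen. Sequences, coordinates and the motifs of the proteins and promoters were not used here. Alternatives changed the test, scaling, filter, minimum of reads, terms of the fit and libraries.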

Additional observations from a re-analysis of the deposited data

Results flagged for a closer look

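With at least 100 reads in every library, 5 helicases had a polyA+ change between stages that exceeded the ribo-depleted change by over 1 log2 beyond the median of all genes and ran in the opposite direction, higher at 4.8 hpf in polyA+ and lower in ribo-depleted libraries by library totals. The polyA+ change minus the ribo-depleted change, on the log2 scale, was 2.65 for dhx37, 1.98 for ddx56, 1.95 for ddx21, 1.71 for dhx40 and 1.16 for ddx52. With 1 library per stage and library type, none of these differences was tested. By TMM scaling, dhx37, ddx56 and dhx40 still ran in opposite directions, and ddx21 and ddx52 were higher at 4.8 hpf in both library types. For dhx40 the levels were 27.1 and 20.5 RPM in the polyA+ libraries of 4.8 hpf and 1 hpf and 42.4 and 105 in the ribo-depleted libraries, and for ddx52 they were 114 and 64.6, and 99.8 and 126.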

How the results depend on the processing

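No paired analysis was possible because the deposited values carry no replicate number (library type, a term of the reported fit, is the only block). Of 82 alternative counts, medians and percentages, 42 stayed within 1.5 times (counts) or within the 95% interval of the median over genes or of the share of reads (the others). For total reads (5 higher, 7 lower), DESeq2 called 7 higher and 4 lower, the fit without library type 1 and 0 (3 and 6 at an unadjusted p under 0.05), and fits without any 1 library 0 higher and 0 to 1 lower (1 to 8 and 0 to 7 at an unadjusted p under 0.05). For stored RNA (2 and 9), TMM of the unlabeled reads gave 5 higher, no filter on low counts 1 higher, and the fit without library type, like each fit without 1 library, 0 and 0, with at most 5 higher and 7 lower at an unadjusted p under 0.05 by edgeR. Between library types (4 and 5), no stage term gave 0 and 0, and lower calls were 2 with DESeq2 and 3 with library totals.

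With at least 1000 reads, 6 and 14 helicases had an NTR under 5% and from 5% to 65% in polyA+ libraries. In ribo-depleted libraries, 6, 19 and 0 fell in the 3 classes. The median log2 change of stored RNA in ribo-depleted libraries was 0.47 in place of -0.23 (0.11 with TMM). The median NTR was 10.045% and 11.4% in place of 15.1% and 15.3%. T-to-C conversion was higher in 12, which were all the helicases with at least 1000 reads in every library. Fewer helicases met this bound, so its counts cannot be compared directly with those at 100 reads. Subtracting the NTR of 1 hpf gave 17.3% labeled in ribo-depleted libraries. Alternatives chosen after seeing the data gave 4 (TMM) and 1 (at least 1000 reads) in place of 8 helicases in opposite directions. They gave 1 (at least 1000 reads) in place of 6 with a difference over 1 log2, and 11.1% and 10.9% labeled without ddx5. The counts at 1000 reads are again over fewer helicases.

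In the next counts, changes that were not called in the reported fit and stayed so count as kept, and only called changes could lose a call. The first count is therefore not a count of calls that held. Among 192 alternative values of 24 genes, 123 kept direction and call, 58 lost the call, 3 gained it and 8 changed sign. These were uncalled changes in fits without 1 library, whose log2 values ran from -0.37 to 0.97 for ddx39aa, -0.062 to 1.31 for ddx39ab, -0.025 to 0.92 for ddx39b, -0.42 to 1.88 for ddx3xb, -0.49 to 1.498 for ddx56, -0.61 to 0.30 for ddx6 and -2.15 to 0.31 for dhx30. With 3 libraries these fits had no term for library type, so the difference between library types enters them, and the lone library of a stage is assumed to vary like the others.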
